A study of Danio rerio with 8 samples.

Results

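A group of 68 zebrafish genes that have no proper gene name was lower in *elipsa* mutants than in controls in each of 4 clutches. The genes were chosen by measured values. Their symbols start with si:, LOC, zgc: or wu:, which are database and clone identifiers, the mutant value was at least 0.7 below the control value on the log2 scale in every clutch, and the mean of the 4 controls was at least 1. The table holds 20409 genes, of which 4234 have such a symbol and 3361 of those reach the control mean, so that the 68 genes are 2.02% of the 3361. By prefix, 26 were si: genes, 25 LOC genes, 13 zgc: genes and 4 wu: genes, and no gene with the prefix im: met the rule. Because the rule used the difference between mutants and controls, that difference is described below without a test.

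RNA of whole larvae was sequenced at 4 days post-fertilization (dpf) in 8 libraries, each from a tube of circa 30 untreated larvae. The 4 mutant libraries came from larvae homozygous (-/-) for the tp49d allele of *traf3ip1*, the gene mutated in *elipsa*, which were recognised by their curved body. The 4 control libraries came from their siblings, a mixture of wild-type and heterozygous (+/-) larvae, so that the controls carry the allele too. Each clutch came from a separate breeding of the same parental strain and gave 1 control and 1 mutant tube, processed together. A value is the log2 of a CPM, the read count of a gene scaled to the total of its library, as normalized by the authors, and a difference of -1 means that the mutant had 1 part for every 2 parts of the control. In whole larvae, fewer cells of a type and less RNA per cell cannot be told apart.

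*traf3ip1* encodes a subunit of intraflagellar transport, the motor-driven traffic along the axoneme that builds and maintains cilia. Some of the genes below carry symbols of photoreceptor or digestive proteins. The outer segment of a photoreceptor is a modified cilium that holds the proteins of phototransduction, the cascade from light-activated opsin through phosphodiesterase to the cyclic nucleotide-gated channel. The exocrine pancreas secretes digestive enzymes and their inactive precursors, and enterocytes of the gut break down and take up nutrients at their brush border.

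*traf3ip1* had 3.03, 2.63, 2.81 and 2.78 in controls 1 to 4 and 2.36, 1.88, 1.61 and 2.09 in mutants 1 to 4, without overlap. Normalization left all libraries with almost the same distribution of values, so depth per library is unknown. All 15 marker lists, for cell types, motile cilia and hedgehog targets, were detected, some in part (44 of 47 listed genes for photoreceptors, 16 of 20 for the exocrine pancreas), none with a gene at the table's lowest value throughout. The libraries of clutch 1 stood apart from the others in both genotypes. All 16 measured genes of the exocrine pancreas list and 10 of 17 of the enterocyte list were lower by at least 1 in clutch 1 than in the mean of clutches 2 to 4, against 1 of 44 of the photoreceptor list, and the median of the blood list was 1.11 higher. A gene outside the 68 is called higher or lower where limma's moderated test, without a term for clutch, gave an adjusted p under 0.1. Counts, medians and calls are therefore also given for clutches 2 to 4 alone, where limma called 4.10% of all genes lower. Neither fit pairs the tubes of a clutch. With clutch as a block 7.86% of all genes were called lower, so a gene that is not called may still differ. Block calls are not given for single genes outside the 68 or for the lists.

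Across the 68 genes the mean difference of mutants minus controls ran from -6.67 to -0.78 with a median of -1.36, where the median over all 20409 genes was 0.03. A difference of -1 or lower was measured for 60 genes, of -1.5 or lower for 27, of -2 or lower for 12 and of -3 or lower for 4. The median was -1.26 in clutch 1, -1.59 in clutch 2, -1.29 in clutch 3 and -1.39 in clutch 4, and -1.42 over clutches 2 to 4 alone. Leaving out clutch 1 moved the mean difference by 0.3 or less in 63 genes and by at most 0.54, in *si:dkey-22i16.7*. Clutch 2 gave the largest difference for 39 genes and clutch 1 the smallest for 28. For a single gene, the SD of its 4 clutch differences was between 0.09 and 2.12 with a median of 0.26. The linear CPM of the 68 genes summed to 1088, 3114, 2807 and 2899 in controls 1 to 4 and to 493.3, 1027, 1229 and 1125 in mutants 1 to 4, so that the sum in control 1 lay within the range of the mutants.

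**Figure D1:**
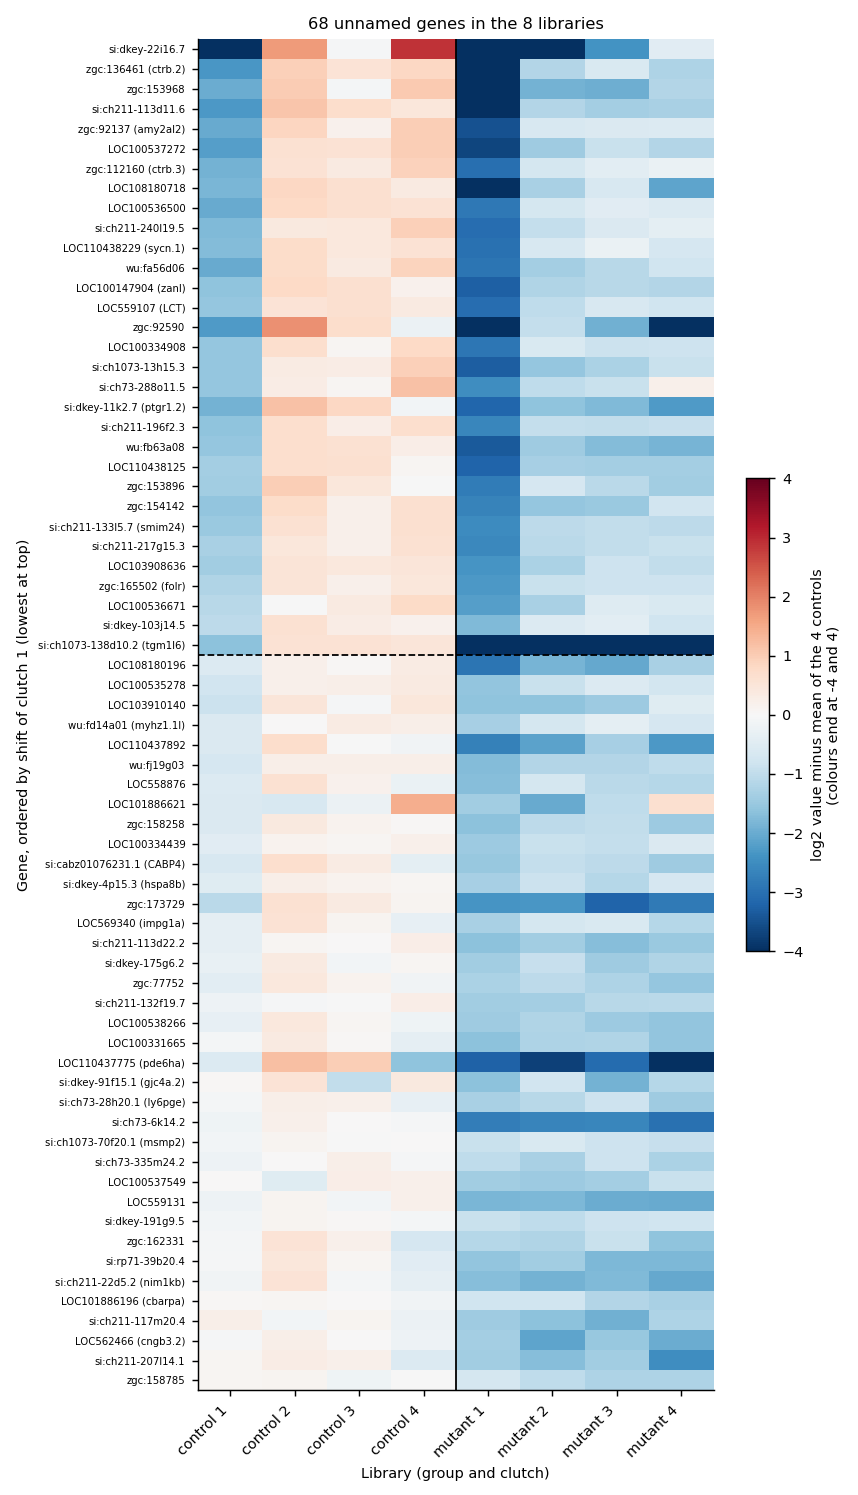
Values of the 68 genes (rows) in the 8 libraries (columns), coloured by the log2 value minus the mean of the 4 controls of that gene, with colours ending at -4 and 4. Rows are ordered by how far clutch 1 lay from the other clutches, and above the dashed line are the 31 genes in which it was lower by 1 or more; there control 1 is blue as well as the mutants, while below the line the blue is mostly limited to the mutants.

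Of the 68 genes, 62 matched an entry of a RefSeq gene table (assembly GRCz12tu). RefSeq now gives 17 of them a gene symbol, Ensembl gives a symbol to another 4, and 47 had none in either. The 62 entries were 59 protein-coding genes, 2 of the class misc_RNA (*si:ch211-113d11.6* and *LOC101886621*) and 1 long non-coding RNA (*si:dkey-22i16.7*). A RefSeq symbol was thus present for 17 of the 68 genes and for 922 (27.4%) of the 3361 unnamed genes with a control mean of at least 1. The 21 genes with a symbol are described first, by role, and then those known only by an identifier.

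Of these, 4 carry symbols of photoreceptor proteins. *LOC110437775* has an Ensembl entry named *pde6ha*, the inhibitory subunit of the cone phosphodiesterase. Its values were 6.28, 8.03, 7.81 and 5.21 in controls 1 to 4 and 3.61, 3.10, 3.75 and 2.76 in mutants 1 to 4, a mean difference of -3.53 ± 1.17 (SD over 4 clutches). The lowest control, of clutch 4, was still above the highest mutant, and the mutants lay closer together than the controls did. *pde6ha* itself is the adjacent gene in the RefSeq order and differed by -3.71, so reads may be split between the neighbours. *LOC562466*, which RefSeq names *cngb3.2*, belongs to the beta subunits of the cone cyclic nucleotide-gated channel. It had 4.18, 4.44, 4.24 and 4.00 in controls and 2.87, 2.10, 2.69 and 2.25 in mutants, a difference of -1.74 ± 0.44 (SD, n = 4 clutches). Its neighbour *cngb3.1* differed by -0.76 and was not called in the fits without a clutch term, over all clutches or without clutch 1.

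The other photoreceptor symbols showed smaller differences, again without overlap of the groups. *si:cabz01076231.1* is *CABP4* in Ensembl, a calcium-binding protein of the photoreceptor synapse. It had 2.18, 3.49, 3.16 and 2.44 in controls and 1.31, 1.88, 1.78 and 1.39 in mutants, a difference of -1.23 ± 0.33 (SD, n = 4). *LOC569340* (*impg1a* in RefSeq) encodes a proteoglycan of the matrix around photoreceptors. Its values of 5.26, 6.20, 5.71 and 5.29 in controls stood against 4.31, 4.91, 5.01 and 4.47 in mutants, a difference of -0.94 ± 0.25 (SD, n = 4). Among the 44 measured genes of the photoreceptor list, none of which is one of the 68, limma called 36 lower and none higher in mutants (1.16% of all genes were called lower), with a median difference of -1.96, and the list's summed CPM was 6479 to 12596 in controls and 2222 to 2390 in mutants. Without clutch 1, 36 of the 44 were called lower and 1 higher, with a median of -2.14.

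Another 5 genes carry symbols of digestive enzymes or of the granules that store them. In all 5 the control of clutch 1 lay below the mutants of the other clutches, so the groups overlapped although each mutant was below its own control. *zgc:136461* (*ctrb.2*), a chymotrypsinogen, had 5.27, 8.58, 8.15 and 8.44 in controls and 3.26, 6.42, 7.00 and 6.37 in mutants, a difference of -1.84 ± 0.47 (SD, n = 4). *zgc:112160* (*ctrb.3*), its neighbour and paralog, had 5.98, 8.47, 8.25 and 8.80 in controls and 4.85, 7.16, 7.47 and 7.61 in mutants, a difference of -1.10 ± 0.23 (SD, n = 4). These genes and the adjacent *ctrb1*, which differed by -0.87, may share reads. *ctrb1* was not called over all clutches without a clutch term, and was called lower without clutch 1.

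*zgc:92137* is named *amy2al2*, an amylase that cleaves starch. It had 3.48, 6.35, 5.66 and 6.46 in controls and 2.00, 4.84, 4.90 and 4.94 in mutants, a difference of -1.31 ± 0.37 (SD, n = 4). *LOC110438229* (*sycn.1*) encodes syncollin, a protein of zymogen granules. Its values were 1.22, 3.67, 3.38 and 3.53 in controls and -0.03, 2.32, 2.67 and 2.28 in mutants, a difference of -1.14 ± 0.29 (SD, n = 4). *LOC559107* has an Ensembl entry named *LCT*, for lactase, a brush border enzyme. It had 3.07, 5.16, 5.22 and 4.94 in controls and 1.56, 3.59, 3.97 and 3.79 in mutants, a difference of -1.37 ± 0.20 (SD, n = 4). The adjacent *lct* differed by -1.57 and was not called in the fits without a clutch term, over all clutches or without clutch 1. The control mean of *lct* was 0.46, so the size of its difference depends on how low values are treated.

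The marker lists of these tissues had lower medians in mutants and in clutch 1 as well. The limit of -0.7 in every clutch was met by 1.18% of genes with a proper symbol and a control mean of at least 1. Of the photoreceptor list 32 of 44 genes met it. Of the 16 measured genes of the exocrine pancreas list 8 met it, the median difference was -1.13, and none was called without a clutch term. The list's summed CPM was 1197 in control 1 and up to 7044 in the other controls, and 646 to 3486 in mutants. For the 17 enterocyte genes the median difference was -1.03, with 8 meeting the limit and none called. Their summed CPM was 9433 to 11594 in controls and 8641 to 10564 in mutants. *apoa1a* and *apobb.1*, with the highest control means of the list (12.11 and 11.55), weigh most in this sum and differed by 0.10 and 0.03. *apoba* differed by 0.40, and the other genes of the list had negative differences. Without clutch 1, limma called 15 of the 16 pancreas genes and 13 of the 17 enterocyte genes lower, with medians of -1.19 and -1.18. The smooth muscle list had a median of -0.75, a clutch 1 shift of -0.72 and 2 of 11 genes called lower, or 8 without clutch 1. The hedgehog target list, with a median of -0.83 and a clutch 1 shift of 0.21, had 4 of 6 genes called lower, or 5 without clutch 1. The part of these tissues and genes in the differences of the unnamed genes was not tested.

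**Figure D2:**
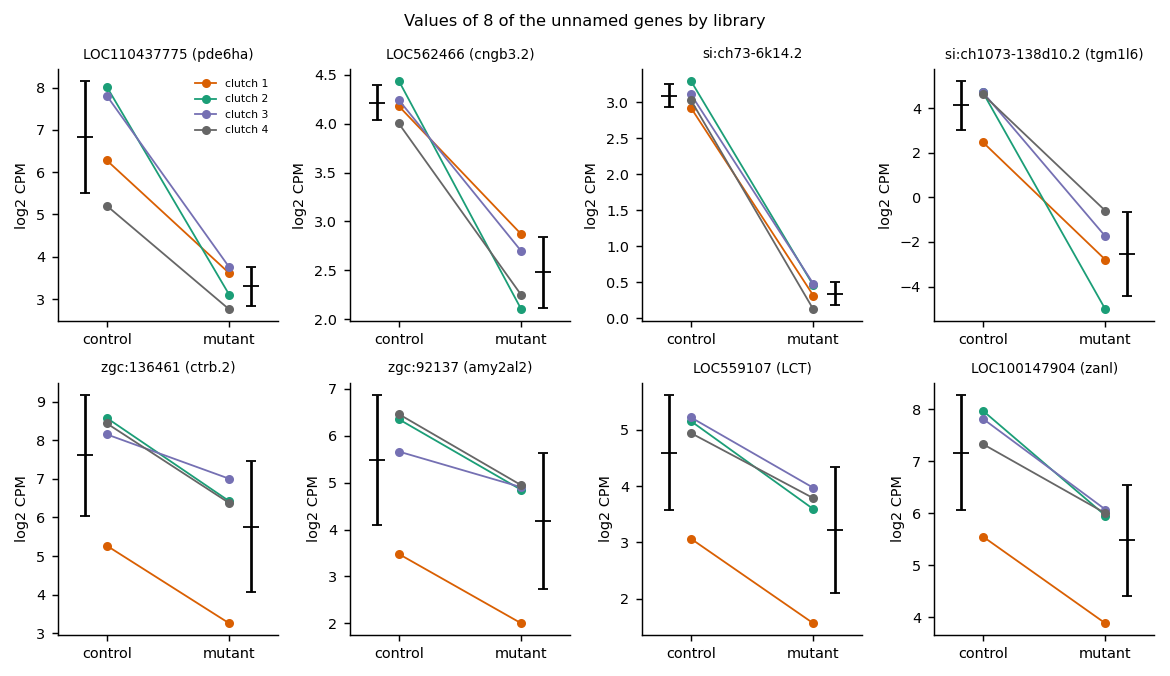
Log2 CPM of 8 of the genes in controls and mutants, with the libraries of a clutch joined by a line and the mean ± SD (n = 4) of each group beside the points. The upper 4 genes show groups without overlap, whereas in the lower 4 genes both libraries of clutch 1 lie below the other clutches, so that control 1 (5.27 for *ctrb.2*) is lower than mutants 2 to 4.

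The remaining 12 genes with a symbol have varied roles. *si:ch1073-138d10.2* (*tgm1l6*) encodes a transglutaminase, an enzyme that cross-links proteins. It had 2.47, 4.70, 4.71 and 4.62 in controls and -2.80, -5.02, -1.75 and -0.60 in mutants, and differed most of the 68 genes. The value of mutant 2 is the lowest of the whole table, so the size of the difference depends on how low values are treated. It was -6.67 as deposited and -3.89 when 1 CPM was added before taking the log. Its neighbours *tgm1l3* and *tgm1l2*, 1 and 2 genes away, differed by -4.67 and -3.86 and were called, and these paralogs may share reads. The control mean of *tgm1l2* was -0.70, so the size of its difference also depends on how low values are treated.

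*si:dkey-11k2.7* (*ptgr1.2*) encodes a prostaglandin reductase. It had 0.31, 3.35, 3.00 and 2.10 in controls and -0.97, 0.57, 0.42 and -0.06 in mutants, a difference of -2.20 ± 0.66 (SD, n = 4) in which control 1 overlapped the mutants. *si:ch211-22d5.2* (*nim1kb*), a serine/threonine kinase, had 1.76, 2.42, 1.81 and 1.54 in controls and 0.19, -0.01, 0.13 and -0.17 in mutants, a difference of -1.85 ± 0.40 (SD, n = 4), or -1.22 with 1 CPM added, without overlap. *LOC100147904* (*zanl*, zonadhesin-like) had 5.55, 7.97, 7.81 and 7.33 in controls and 3.89 in mutant 1 and 5.96 to 6.07 in mutants 2 to 4, a difference of -1.69 ± 0.28 (SD, n = 4). Here, too, only control 1 overlapped the mutants.

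Lower values again in both libraries of clutch 1 were seen for *si:ch211-133l5.7* (*smim24*, a small integral membrane protein) and for *zgc:165502* (*folr*, a folate receptor). *smim24* had 1.20, 3.31, 2.91 and 3.34 in controls and 0.19, 1.64, 1.72 and 1.65 in mutants. *folr* had 1.50, 3.22, 2.89 and 3.14 in controls and 0.39, 1.80, 1.85 and 1.85 in mutants. Their differences were -1.39 ± 0.34 and -1.22 ± 0.17 (SD, n = 4).

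Clutch 1 lay closer to the others for the last 6. The connexin gene *si:dkey-91f15.1* (*gjc4a.2*) had 2.27, 2.78, 1.23 and 2.61 in controls and 0.57, 1.46, 0.33 and 1.09 in mutants, where control 3 overlapped the mutants. *si:dkey-4p15.3* (*hspa8b*), a heat shock cognate chaperone, had 2.37, 3.09, 2.98 and 2.94 in controls and 1.50, 2.00, 1.69 and 2.16 in mutants, a difference of -1.01 ± 0.23 (SD, n = 4). *LOC101886196* (*cbarpa*), a regulator of calcium channel beta subunits, had 2.86, 2.89, 2.82 and 2.65 in controls and 2.00, 2.00, 1.64 and 1.52 in mutants, a difference of -1.01 ± 0.16 (SD, n = 4). The groups of *hspa8b* and *cbarpa* did not overlap.

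*si:ch73-28h20.1* (*ly6pge*) differed by -1.16 ± 0.14 (SD, n = 4), from 3.65 to 4.22 in controls to 2.59 to 3.18 in mutants. *si:ch1073-70f20.1* (*msmp2* in Ensembl, a microseminoprotein) had 2.24, 2.44, 2.34 and 2.34 in controls and 1.46, 1.73, 1.52 and 1.42 in mutants. At 0.20, the range of its 4 clutch differences was the smallest of the 68 genes. *wu:fd14a01* (*myhz1.1l*, a fast muscle myosin heavy chain) had 8.23, 8.82, 9.16 and 9.06 in controls and 7.48, 8.11, 8.44 and 8.13 in mutants. Its difference of -0.78 ± 0.10 (SD, n = 4) was the smallest in the group, and it belongs to a family of near-identical myosins, so its value is uncertain. The skeletal muscle list had a median difference of 0.02 and no called gene.

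Of the 47 genes without a symbol, whose functions the sources used here do not give, 7 were among the 10 with the largest difference. In *si:ch73-6k14.2* the libraries of each group lay close together. It had 2.93, 3.30, 3.11 and 3.03 in controls and 0.31, 0.45, 0.48 and 0.12 in mutants, a difference of -2.75 ± 0.15 (SD, n = 4), or 6.73-fold lower. *LOC110437892* had 2.37, 3.65, 2.93 and 2.80 in controls and 0.25, 0.79, 1.61 and 0.64 in mutants, also without overlap. *zgc:173729* had 0.48, 2.16, 1.90 and 1.65 in controls and -0.80, -0.77, -1.65 and -1.27 in mutants, a difference of -2.67 that became -1.45 with 1 CPM added. One of its adjacent genes, *serpinb1l4*, differed by -3.09 and was called lower, while the other, *serpinb1l1*, differed by 0.44 and was not called.

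In the other 4 of these genes the groups overlapped, always through clutch 1. *zgc:153968* had 3.37, 6.37, 5.27 and 6.39 in controls and -0.12, 3.45, 3.39 and 4.19 in mutants, a difference of -2.62 ± 0.72 (SD, n = 4). *wu:fb63a08* had 3.49, 5.70, 5.65 and 5.31 in controls and 1.68, 3.60, 3.30 and 3.18 in mutants, and its differences varied less, at -2.09 ± 0.22 (SD, n = 4). The least stable values were those of *zgc:92590* and of the long non-coding RNA *si:dkey-22i16.7*. *zgc:92590* had -0.75, 3.34, 2.20 and 1.27 in controls and -2.80, 0.57, -0.40 and -5.02 in mutants. *si:dkey-22i16.7* had -3.23, 2.99, 1.24 and 4.19 in controls and -5.02, -3.17, -1.09 and 0.85 in mutants. Both reached the lowest value of the table in a mutant library, and with 1 CPM added their differences went from -3.43 to -1.51 and from -3.41 to -1.77.

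Some of the genes without a symbol had high values in controls, although values are not divided by gene length and do not rank genes by transcript number. *LOC100535278* had 5.94, 6.91, 6.94 and 7.06 in controls and 5.15, 5.83, 6.16 and 5.97 in mutants, with control 1 below mutants 3 and 4. *wu:fj19g03* had 5.64, 6.55, 6.55 and 6.55 in controls and 4.60, 5.14, 5.16 and 5.30 in mutants, without overlap. *wu:fa56d06* had 3.76, 6.53, 6.14 and 6.68 in controls and 2.86, 4.42, 4.67 and 4.97 in mutants, with control 1 below mutants 2 to 4. Their differences were -0.94 ± 0.17, -1.27 ± 0.18 and -1.55 ± 0.50 (SD, n = 4).

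The difference was nearly the same in every clutch for several genes. *si:dkey-175g6.2* had 4.99, 5.63, 5.18 and 5.36 in controls and 3.90, 4.36, 3.86 and 4.07 in mutants, a difference of -1.24 ± 0.10 (SD, n = 4). *si:ch211-132f19.7* had 3.68, 3.83, 3.86 and 4.15 in controls and 2.49, 2.52, 2.77 and 2.80 in mutants, a difference of -1.23 ± 0.12 (SD, n = 4). *LOC100334439* had 2.16, 2.75, 2.69 and 2.80 in controls and 1.14, 1.70, 1.64 and 2.02 in mutants, a difference of -0.97 ± 0.13 (SD, n = 4). None of these groups overlapped. In *zgc:153896* the differences were as even, at -1.48 ± 0.13 (SD, n = 4), but clutch 1 was low in both genotypes, with 1.91, 4.29, 3.75 and 3.30 in controls and 0.51, 2.64, 2.24 and 1.93 in mutants.

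Similarly even libraries without overlap were those of *LOC559131* and *si:dkey-191g9.5*. *LOC559131* had 3.15, 3.44, 3.22 and 3.54 in controls and 1.50, 1.55, 1.34 and 1.32 in mutants, a difference of -1.91 ± 0.23 (SD, n = 4). *si:dkey-191g9.5* had 4.28, 4.49, 4.41 and 4.31 in controls and 3.48, 3.36, 3.54 and 3.57 in mutants, a difference of -0.88 ± 0.17 (SD, n = 4). The opposite was true of *si:ch211-113d11.6* and *LOC100537272*, in which clutch 1 was far below the rest. *si:ch211-113d11.6*, of the class misc_RNA, had 0.76, 4.17, 3.75 and 3.51 in controls and -1.07, 1.88, 1.69 and 1.76 in mutants. *LOC100537272* had 2.18, 5.00, 4.96 and 5.36 in controls and 0.69, 2.94, 3.50 and 3.21 in mutants. Their differences, -1.98 ± 0.24 and -1.79 ± 0.37 (SD, n = 4), were present in each clutch all the same.

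For 20 further genes without a symbol the values are given as ranges. In 7 of them, *LOC110438125*, *zgc:154142*, *si:ch211-217g15.3*, *si:ch211-196f2.3*, *LOC100334908*, *si:ch211-240l19.5* and *LOC100536500*, clutch 1 was lower by 1.66 to 2.50, the groups overlapped, and the difference between mutants and controls was -1.81 to -1.14. The other 13 were *LOC108180196*, *si:ch211-207l14.1*, *si:rp71-39b20.4*, *si:ch211-117m20.4*, *si:ch211-113d22.2*, *LOC100331665*, *LOC100538266*, *LOC103910140*, *zgc:158258*, *zgc:77752*, *zgc:162331*, *LOC558876* and *si:ch73-335m24.2*. Their differences were -2.03 to -1.10, and the groups did not overlap in 12 of the 13. In 3.34% of all genes every mutant library lay below every control library. The genes were split here by the shift of clutch 1, which largely sets whether the groups overlap. The exception, *LOC103910140*, had 0.45, 1.80, 1.28 and 1.76 in controls and -0.28, -0.29, -0.12 and 0.83 in mutants. With 1 CPM added, the difference went from -1.81 to -1.19 in *LOC110438125*, from -1.29 to -0.79 in *LOC103910140* and from -1.15 to -0.74 in *LOC558876*.

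The level of a gene in a clutch, averaged over its control and its mutant, is not the difference that chose the genes. The rule did set a minimum for the mean of the 4 controls, but no limit on how the level varied between clutches, and this variation was tested. In a limma fit of genotype plus clutch, the F-test of the clutch terms called 47 of the 68 genes (69.1%) at an adjusted p under 0.1, where it called 26.0% of all genes and 112 (62.6%) of the 179 genes with a proper symbol that met the same rule. The spread that this test sets the clutches against is the spread of the differences that the rule restricted, so the share is not fully free of the rule. The count rested on clutch 1. Without its libraries, 9 of the 68 genes differed between clutches 2 to 4, where the share of all genes was 5.31% and 24 of those 179 were called.

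The direction was nearly always the same. Both genotypes averaged, clutch 1 lay below the mean of the other clutches in 60 of the 68 genes, and in 8823 of all 20409 genes. In 52 of the 68 it did so in each genotype, which was not counted over all genes. The genes share the same libraries of clutch 1, so they are not separate observations of it. The median shift of clutch 1 was -0.78, against 0.04 over all genes, and it was -0.97 in controls and -0.74 in mutants. A shift of -1 or lower was measured in 31 genes, or 45.6%, and in 2.23% of all genes. The 179 genes with a proper symbol that met the same rule had 153 lower in clutch 1, a median shift of -0.67 and 43.0% at -1 or lower, and the difference between these sets was not tested.

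The genes at the low end had clutch 1 far below the rest. The shift was -4.96 for *si:dkey-22i16.7* (clutch test, adjusted p = 0.00825 from limma) and -3.23 for *ctrb.2* (adjusted p = 7.56e-05). It was -3.22 for *zgc:153968* (adjusted p = 0.000676), -2.95 for *si:ch211-113d11.6* (adjusted p = 0.0001) and -2.79 for *amy2al2* (adjusted p = 6.82e-05). All 5 genes with digestive symbols were in this part, at -2.13 to -3.23, and the 16 genes of the exocrine pancreas list had a median shift of -2.49. The 4 genes with photoreceptor symbols had shifts of -0.61 to 0.24. The median shift was -0.78 over the 68 genes and -0.35 over the photoreceptor list. The shift was -0.13 for *si:ch73-6k14.2* (adjusted p = 0.55), -0.08 for *LOC559131* (adjusted p = 0.744), 0.02 for *nim1kb* (adjusted p = 0.509) and 0.24 for *cngb3.2* (adjusted p = 0.446), and it was highest, at 0.28, for *zgc:158785*. These p-values are of the F-test over all clutches, not of the shift of clutch 1. That test called 17 of the 37 genes without a shift of -1 or lower, where it called 26.0% of all genes. Among the 17 were 3 of the 4 genes with photoreceptor symbols, *LOC110437775* (adjusted p = 0.0942), *si:cabz01076231.1* (adjusted p = 0.0439) and *impg1a* (adjusted p = 0.0142). Which cells express the genes without a symbol was not tested.

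**Figure D3:**
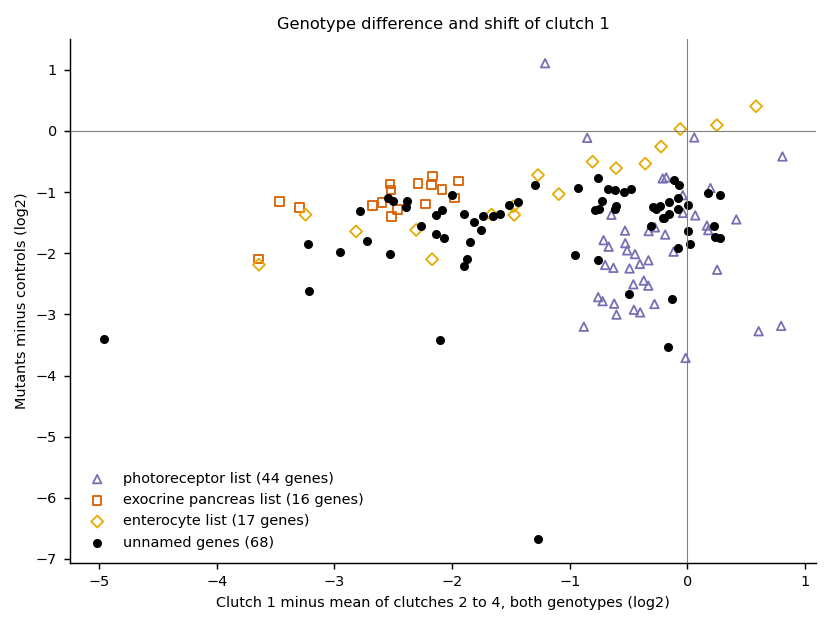
Each point is a gene, with the shift of clutch 1 against the other clutches (log2, both genotypes averaged) on the horizontal axis and the mean difference of mutants minus controls (log2) on the vertical axis. The 68 unnamed genes (black) cover both the region of the photoreceptor list, whose median shift was -0.35, and that of the exocrine pancreas list, with a median of -2.49.

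The 9 genes that differed among clutches 2 to 4 did so in different ways. *LOC101886621*, of the class misc_RNA, was high in both libraries of clutch 4, with 1.24, 1.18, 1.59 and 3.26 in controls and 0.44, -0.20, 0.80 and 2.45 in mutants (adjusted p = 0.0115 from limma without clutch 1). *si:ch73-288o11.5* was also highest in clutch 4, with 2.32, 4.18, 3.96 and 5.05 in controls and 1.39, 2.86, 2.99 and 4.07 in mutants (adjusted p = 0.0165). *si:ch1073-13h15.3* had 3.88, 5.74, 5.72 and 6.38 in controls and 2.13, 3.89, 4.16 and 4.55 in mutants (adjusted p = 0.0487). In *gjc4a.2* clutch 3 was the lowest in both genotypes (adjusted p = 0.0635). The remaining 5 were *LOC100536671*, *si:ch211-207l14.1*, *zgc:153896*, *si:dkey-175g6.2* and *impg1a*, with adjusted p-values of 0.0655 to 0.0984.

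Every mutant library lay below every control library in 33 of the 68 genes, and in 3.34% of all genes. Within the 31 genes with a shift of -1 or lower this was the case for 1, *tgm1l6*, and within the other 37 for 32, a split that follows from the values themselves, since a control 1 lowered by 1 or more falls among mutants lowered by about as much. Without clutch 1, every mutant library lay below every control library in 65 of the 68 genes and in 11.2% of all genes. In limma without a clutch term 30 of the 68 genes were called lower at an adjusted p under 0.1, of them 1 in the 31 and 29 in the 37, and in all 1.16% of the genes tested were called lower. With clutch as a block all 68 were called, where 7.86% of all genes were, and with the libraries of clutch 1 left out, without a block, 64 were called, where 4.10% of all genes were. These counts describe how the rule, which read each clutch separately, and the tests relate, and they are no support for the selection.

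Genes with a proper symbol were put through the same rule. Of 15200 with a control mean of at least 1, 179 met it, or 1.18%, against 2.02% of the unnamed genes. Their median difference was -1.47, against -1.36, and 100 of the 179 had groups without overlap, where 3.34% of all genes had every mutant library below every control library. Over clutches 2 to 4, 106 unnamed genes (3.15%) and 281 with a proper symbol (1.85%) met the rule. The share of unnamed genes was the higher in 4 of 5 ranges of control level. Between 1 and 2 it was 1.35% of 889 genes against 1.71% of 1403. Between 2 and 3 it was 1.71% of 819 against 1.39% of 2305. For 3 to 4 it was 2.73% of 695 against 1.13% of 2919, and for 4 to 6 2.09% of 764 against 0.885% of 5873. From 6 upwards it was 3.61% of 194 against 1.41% of 2700, where 7 and 38 genes met the rule. Among these 7 were *ctrb.2* and *ctrb.3*, which may share reads. The difference in share between unnamed genes and genes with a proper symbol was not tested. With the sign turned and the same minimum for the control mean, 3 unnamed genes and 13 with a proper symbol were higher by at least 0.7 in every clutch. That minimum leaves out genes that rise from a lower control level, so these counts cannot be set directly against those of the falls.

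**Figure D4:**
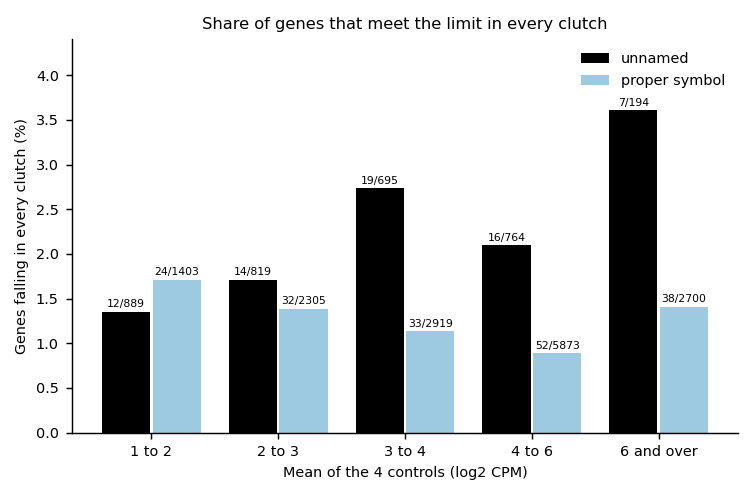
Percentage of unnamed genes (black) and of genes with a proper symbol (blue) that were lower by at least 0.7 in every clutch, in 5 ranges of the mean of the 4 controls, with the number of genes and the total above each bar. The bars differ most from 6 upwards, with 3.61% against 1.41%, where 7 unnamed genes met the rule, and are reversed between 1 and 2. The difference in shares was not tested.

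By gene order in the RefSeq table, the 62 genes with an entry lay on 24 chromosomes, and a few were close together. *ctrb.2* and *ctrb.3* were adjacent, as were *sycn.1* and *LOC108180718*, which had 1.54, 4.18, 4.02 and 3.73 in controls and -0.61, 2.06, 2.72 and 1.25 in mutants. On the other side of *LOC108180718*, *LOC101886091* differed by -1.06. It was not called over all clutches without a clutch term, and was called lower without clutch 1. *LOC100537549* and *si:ch211-132f19.7* lay 4 genes apart, *LOC103908636* and *LOC100536671* 8, *LOC108180196* and *cbarpa* 13, and *zanl* and *si:ch211-196f2.3* 20. *LOC100537549* had 1.83, 1.33, 2.10 and 2.05 in controls and 0.44, 0.38, 0.48 and 0.94 in mutants. *LOC103908636* had 2.41, 4.31, 4.22 and 4.29 in controls and 1.46, 2.55, 2.97 and 2.81 in mutants, and *LOC100536671* had 3.84, 4.94, 5.33 and 5.74 in controls and 2.77, 3.66, 4.44 and 4.36 in mutants. Both were low in clutch 1.

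The nearest measured genes on either side that were not among the 68 numbered 119, and their median difference was 0.00. Of these neighbours 5 (4.20%) were called lower in mutants, where 1.16% of all genes were, and 2 were called higher. Without clutch 1, 11 (9.24%) were called lower, where 4.10% of all genes were, and the median was -0.01. The first 5 were *pde6ha*, *tgm1l3*, *tgm1l2* and *serpinb1l4*, given above, and *gngt2b*, a transducin gamma subunit of photoreceptors next to *si:ch1073-13h15.3*, with a difference of -2.17. The 11 add *ctrb1*, *LOC101886091*, *si:ch211-240l19.6*, *nt5e*, *LOC100537594* and *xdh*. The genes called higher in all clutches together were *si:ch211-258f14.2*, by 0.67, near *zgc:162331* and *odf3b*, by 1.21, near *zgc:77752*. The control mean of *odf3b* was 0.43, so the size of its difference depends on how low values are treated. Only *LOC559107* lay on the chromosome of *traf3ip1*, 14 genes away.

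Values lay close together on both sides of the limit of -0.7. Just inside it, the smallest difference over the clutches was -0.708 for *sycn.1*, -0.707 for *myhz1.1l* and -0.704 for both *impg1a* and *si:dkey-103j14.5*, which had 1.35, 3.02, 2.69 and 2.57 in controls and 0.63, 1.85, 1.99 and 1.62 in mutants. Just outside it were *zgc:158846* with -0.696, *LOC100537321* with -0.693, *si:dkey-57c15.4* (*cela1.2*, a pancreatic elastase) with -0.681 and *si:ch211-217a12.1* with -0.667. When the rule was read over clutches 2 to 4 only, 106 unnamed genes met it, among them all 68. *zgc:158785*, in which the shift of clutch 1 was highest, had 1.78, 1.82, 1.53 and 1.70 in controls and 1.01, 0.68, 0.48 and 0.47 in mutants, a difference of -1.05 ± 0.20 (SD, n = 4).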

How the data were processed

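Read filtering, alignment (HISAT2, Bowtie2), gene counting (RSEM), a filter on mean CPM over 1 and the voom transformation of limma were done by the authors, according to their methods, and the submitters' processing notes name GRCz11. As deposited, 235 genes have a mean linear value of 1 or less over the 8 libraries and 7 are at the lowest value in all, so the filter is not seen in these values. The deposited values are log2 CPM of 20409 genes, and the deciles of the libraries differed by at most 0.028, as a common distribution leaves them, which the methods do not mention. The comparison columns (fold changes, statistics and p-values of the authors) were not used.

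Mutants and controls were compared with limma 3.58.1 (R 4.3.3), with trend, two-sided, Benjamini-Hochberg over all genes, called at an adjusted p under 0.1. The fit was also run on simulated data. These held a shift of clutch 1 in a chosen set of genes and no other clutch effect, so they do not check the fit under the clutch differences measured here. No gene was filtered out. Clutch was left out of the fit, as the methods name no such term, and was a block in an alternative. At the same threshold the paper reported more genes lower in mutants than the 237 called here. The share of 1.16% is thus the background of this fit, not of the study. Tubes of a clutch were processed together, and the libraries of a clutch deviated together from their group means (correlations of 0.64, 0.325, 0.334 and 0.458). Libraries are separate tubes of pooled larvae, each from a different clutch within its group. In the fits without a clutch term, p-values measure the spread between these tubes, which includes the spread between clutches. With clutch as a block, and in the clutch test, they measure the spread of the mutant minus control differences over the clutches.

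The rule, gene lists and tests were chosen with earlier results of these data known, and role groups after symbols were read. Values by library were planned for genes with the largest differences, highest levels, most and least even differences, each role group and those nearest the limit; protein and description rules could not be applied. Other genes shown by library were chosen after their values were seen, among them *LOC559131*, *si:dkey-191g9.5*, *LOC100537272* and *zgc:158785*. The RefSeq table (GRCz12tu) gave symbols, gene classes and gene order only. Alternatives were other limits and control means, 1 CPM added, re-centring, other moderation, stricter thresholds and leaving out libraries or clutches; the fit and lists without clutch 1 were added after seeing the data. Figures were drawn with matplotlib 3.10.9.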

Additional observations from a re-analysis of the deposited data

Results flagged for a closer look

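In 26 of 136 groups of 4 libraries, 1 library lay far from the other 3 by Dixon's criterion, which chance meets in about 1 in 20 independent groups. The 136 groups are the 68 genes in the same libraries, so they are not independent and their count cannot be set against that rate. Other genes were not screened. The 26 groups belong to 22 genes. Mutant 1 was the low library in 14 and control 1 in 10, and mutant 4 was the high one in 2.

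Control 1 was low in *si:ch1073-138d10.2* (2.47), *LOC100537272* (2.18), *zgc:136461* (5.27), *LOC103908636* (2.41), *LOC559107* (3.07), *wu:fj19g03* (5.64), *LOC100536500* (1.35), *LOC110438229* (1.22), *LOC100334439* (2.16) and *LOC100535278* (5.94). Mutant 1 was low in *si:ch211-113d11.6* (-1.07), *LOC110438125* (-1.32), *zgc:136461* (3.26), *LOC100147904* (3.89), *si:ch211-133l5.7* (0.19), *si:ch211-196f2.3* (1.56), *si:ch211-217g15.3* (0.96), *LOC559107* (1.56), *LOC100334908* (-0.40), *zgc:92137* (2.00), *zgc:165502* (0.39), *LOC100536500* (0.51), *LOC110438229* (-0.035) and *zgc:112160* (4.85). Mutant 4 was high in *LOC103910140* (0.83) and *LOC100537549* (0.94). All values are log2 CPM. Both libraries of clutch 1 were low in *zgc:136461*, *LOC559107*, *LOC100536500* and *LOC110438229*.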

How the results depend on the processing

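The rule found 68 genes, 106 over clutches 2 to 4 alone and 46 to 82 under the other settings; with 1 CPM added it found 46, of which 45 were among the 68. The median difference of -1.36 became -1.20 with 1 CPM added and ran from -1.73 (without control 1) to -1.16 (without mutant 1) when single libraries were left out. With 1 CPM added no single gene changed its direction, but 26 of the 68 differences moved by more than their SD over clutches and 8 shrank by over 1.5 times, namely *si:ch1073-138d10.2*, *zgc:92590*, *si:dkey-22i16.7*, *zgc:173729*, *si:ch211-22d5.2*, *LOC110438125*, *LOC103910140* and *LOC558876*. Re-centring moved the median of all genes by -0.04. With clutch as a replicate block the genes called lower went from 30 to 68 among the 68 and from 237 to 1605 among all genes. Leaving out single libraries, or both of clutch 1 (chosen after seeing the data), gave 25 to 64 of the 68 and 126 to 836 of all genes, with 57 and 806 without control 1, 64 and 836 without clutch 1, and the count over all genes was 137 without control 2, 126 without control 3 and 152 without mutant 2 or mutant 4. The clutch test called 47 of the 68, and 9 to 47 when a clutch was left out. Over all genes it called 5310, 2737 without the trend, 3178 at an adjusted p under 0.05 and 1083 to 5158 when a clutch was left out, with 1083 without clutch 1 and 3238 without clutch 4. The cause of these changes was not tested. The depth of the libraries is unknown, so no counting error can be given for the low values.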
